A study of Homo sapiens with 10 samples.

Results

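Thyroid identity genes are described here as a set of 9 genes picked by name out of the 58735 genes of a table of FPKM (fragments per kilobase, scaled to library size), namely PAX8, NKX2-1, FOXE1, HHEX, GLIS3, TG, TSHR, THRB and DIO2. All 9 were found, each in 1 row. They were measured by RNA sequencing in TPC-1, a human papillary thyroid carcinoma cell line whose CCDC6-RET fusion keeps the RET kinase active, so every group carries that fusion. There were 5 groups of 2 libraries. BR8, BR10 and BR16 were colonies raised from parental cells under 5 µM BLU667 (pralsetinib, an inhibitor of RET). The sample labels give their exposure as over 50 days and the series text as over 5 months. Parental cells had received 5 µM BLU667 for 24 h, or the solvent DMSO for 24 h. The series text calls the 2 libraries of a group biological replicates, without saying how the cultures were separated. All groups come from 1 cell line, so p-values speak of the spread between its libraries. The colonies are 3 derivatives of that line, and the sources used here do not say whether each is 1 clone.

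A thyroid follicular cell is specified by a small circuit of transcription factors. PAX8 (a paired-box factor), NKX2-1 and HHEX (homeobox factors) and FOXE1 (a forkhead factor) are needed together for the gland to form, and in the adult cell PAX8, NKX2-1 and FOXE1 act on the genes of hormone synthesis. GLIS3, a zinc finger factor, is needed for hormone synthesis in mice and humans. The target end of the circuit holds TG, the protein scaffold on which hormone is made, and TSHR, the receptor for pituitary thyrotropin. THRB is a nuclear receptor for thyroid hormone, and DIO2 is the deiodinase that turns thyroxine into the more active triiodothyronine. Loss of part of this programme is called dedifferentiation and is common in thyroid cancer cell lines.

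Reads counted in genes ranged from 15243703 to 21904245 per library, and mitochondrial reads made up 3.23% to 6.49% of them. A gene entered the tests where 2 or more libraries reached 1 FPKM, which 13927 genes did. Differences between libraries followed the GC content of transcripts in places. Spearman's rho with GC was 0.62 for the difference between both DMSO libraries and -0.61 for BR8 against BR16. The rho values are relations across genes, which are not independent replicates. GC-corrected values are given for some comparisons. For single pairs of groups none are given. Over all pairs, 37 combinations of identity gene and pair were called with GC trends removed and 34 without. In these bulk libraries, fewer cells expressing a gene and less RNA per cell cannot be told apart.

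Of the identity genes, 5 passed the filter and 4 did not. PAX8 was the most abundant, with a mean of 57.8 FPKM over the 10 libraries, above 95.9% of the tested genes. GLIS3 followed at 17.3 FPKM, above 82.5% of them, and THRB at 9.56 FPKM, above 68.1%. HHEX (3.21 FPKM) and FOXE1 (3.16 FPKM) lay lower, above 37.5% and 37.1% of the tested genes. TG and DIO2 stayed below 0.3 FPKM in every library, and NKX2-1 and TSHR were all but absent from the reads. The label thus holds only in part. PAX8, GLIS3 and THRB were expressed, and HHEX and FOXE1 at low levels. TG and DIO2 were barely detected, and TSHR and NKX2-1 were not expressed, with 3 reads and 1 read in all 10 libraries.

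**Figure D1:**
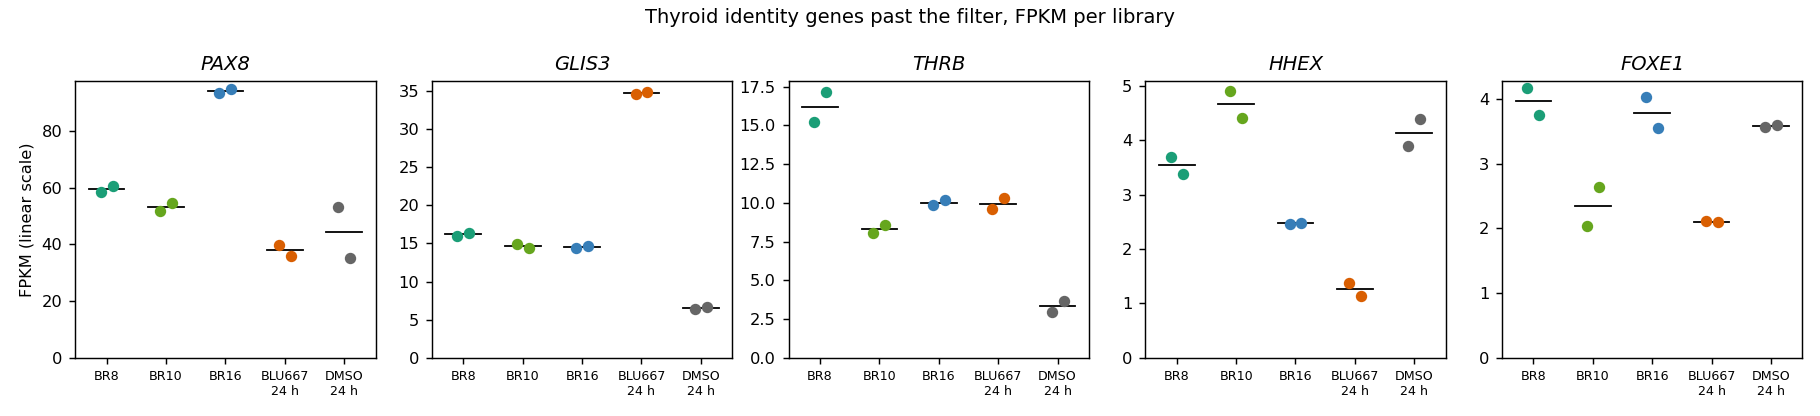
FPKM of the 5 identity genes that passed the filter, on linear axes that start at 0. Each point is a library, 2 per group, and the bar is their mean. GLIS3 sits near 34.7 FPKM after 24 h of BLU667 and near 6.52 in DMSO, with the colonies between, whereas HHEX shows the opposite order of those 2 groups.

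Start regions are shown for GLIS3, THRB and HHEX, so that their unlike composition can be seen. Among the 5 identity genes tested, these 3 differed most after 24 h of inhibitor, by log2 change of FPKM + 1. RefSeq windows of 300 bases in build GRCh38.p14, 250 before the start and 50 from it, were at hand for 8 of the 9 genes. TG, which was below the filter, had none. Capitals mark a match to 1 of 6 motifs looked for on both strands, of which only the NKX2 core CAAGTG on the THRB strand occurs in these 3.
GLIS3 (chr9:4298447-4298746, minus strand): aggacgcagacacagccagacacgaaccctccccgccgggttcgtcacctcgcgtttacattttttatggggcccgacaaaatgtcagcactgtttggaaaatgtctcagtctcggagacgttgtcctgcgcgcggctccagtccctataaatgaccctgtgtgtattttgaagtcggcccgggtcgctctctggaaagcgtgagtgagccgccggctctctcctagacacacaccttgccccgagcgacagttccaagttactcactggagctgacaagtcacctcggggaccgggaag
THRB (chr3:24495659-24495958, minus strand): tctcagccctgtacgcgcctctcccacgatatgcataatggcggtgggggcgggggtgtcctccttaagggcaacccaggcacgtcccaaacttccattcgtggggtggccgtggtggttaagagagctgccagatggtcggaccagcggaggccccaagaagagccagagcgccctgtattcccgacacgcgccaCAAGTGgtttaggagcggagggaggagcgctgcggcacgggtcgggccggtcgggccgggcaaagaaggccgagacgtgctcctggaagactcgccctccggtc
HHEX (chr10:92689705-92690004, plus strand): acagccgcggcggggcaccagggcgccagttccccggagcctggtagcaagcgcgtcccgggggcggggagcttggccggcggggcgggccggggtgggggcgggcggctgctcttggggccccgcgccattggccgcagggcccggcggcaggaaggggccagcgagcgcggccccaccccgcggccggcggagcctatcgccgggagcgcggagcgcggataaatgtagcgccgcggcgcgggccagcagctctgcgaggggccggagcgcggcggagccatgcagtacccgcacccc
GC made up 57.3% of the GLIS3, 65.7% of the THRB and 80.3% of the HHEX window, with a median of 58.7% over all 35116 windows. CAAGTG occurs in 11.5% of all windows. The nuclear receptor core AGGTCA (13.8% of all windows) was found in the TSHR window, and the AP-1 letters TGANTCA (7.71%) in the DIO2 window. The cyclic AMP response element TGACGTCA (1.85%), the ETS letters CCGGAAG (10.3%) and the homeodomain letters TAATTA (4.84%) were found in none of the 8 windows. The GLIS3 and DIO2 windows belong to starts 49896 and 176253 bases inside the gene spans of the FPKM table, and the NKX2-1 and TSHR windows to starts 917 and 632 bases inside, so they need not hold the starts used in these cells.

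PAX8 (ENSG00000125618, chromosome 2, 113215997 to 113278950, minus strand, GRCh38) had 58.5 and 60.5 FPKM in BR8, 51.9 and 54.6 in BR10, 93.6 and 94.7 in BR16, 39.95 and 35.8 in BLU667 and 53.4 and 35.3 in DMSO. BR16 stood above every other library, BR8 and BR10 were close to each other, and the 2 DMSO libraries spanned the BLU667 libraries. Against DMSO the colonies together were higher, by 0.61 ± 0.13 (log2 change of FPKM + 1 ± SE, limma adjusted p = 0.0059). BR16 rose (1.10 ± 0.16, limma adjusted p = 0.000916), while BR8 gave 0.45 ± 0.16 (limma adjusted p = 0.0501) and BR10 0.29 ± 0.16 (limma adjusted p = 0.198). Against BLU667 each colony was higher, with log2 changes of 0.64 in BR8, 0.48 in BR10 and 1.29 in BR16. The colonies together lay above BLU667 by 0.80, a call lost with the 3 colony means as replicates (limma adjusted p = 0.0774). After 24 h of BLU667 the difference from DMSO was -0.19 ± 0.16 (limma adjusted p = 0.333), and -0.04 with GC trends removed. This difference turned on the DMSO libraries. Without DMSO replicate 1 it was 0.10 (limma adjusted p = 0.352), and without DMSO replicate 2 it was -0.48 (limma adjusted p = 0.00224). The comparison of colonies with DMSO gave 0.90 without DMSO replicate 1 and 0.32 without DMSO replicate 2 and was called in both, but it was not called with the 3 colony means as replicates (limma adjusted p = 0.214).

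PAX8-AS1 overlaps PAX8 on the opposite strand, and the libraries do not keep strand, so reads where the 2 genes overlap cannot be assigned. PAX8-AS1 averaged 4.91 FPKM in BR8, 3.70 in BR10, 5.94 in BR16, 3.39 in BLU667 and 2.73 in DMSO, within a range of 2.66 to 6.49 over the 10 libraries. It was higher in the colonies than in DMSO by 0.63 ± 0.09 (limma adjusted p = 0.000817), and its own part in the PAX8 values was not tested.

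FOXE1 (ENSG00000178919, chromosome 9, 97853254 to 97856715, plus strand) had 4.17 and 3.75 FPKM in BR8, 2.04 and 2.65 in BR10, 4.04 and 3.55 in BR16, 2.12 and 2.09 in BLU667 and 3.57 and 3.60 in DMSO. The libraries of BR8, BR16 and DMSO all lay above those of BR10 and BLU667. BR16 overlapped both BR8 and DMSO, BR8 lay above DMSO, and BR10 overlapped BLU667. FOXE1 fell after 24 h of BLU667 (-0.56 ± 0.11, limma adjusted p = 0.00225), a change of -0.37 once GC trends were removed. BR10 was also lower than DMSO (-0.46 ± 0.11, limma adjusted p = 0.0105). BR8 and BR16 differed from DMSO by 0.11 and 0.06 on the log2 scale, which did not pass the test. The colonies together lay above BLU667 by 0.47 ± 0.09 (limma adjusted p = 0.00202), a call lost with colony means as 3 replicates (limma adjusted p = 0.123).

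HHEX (ENSG00000152804, chromosome 10, 92689951 to 92695646, plus strand) had 3.69 and 3.39 FPKM in BR8, 4.90 and 4.42 in BR10, 2.46 and 2.48 in BR16, 1.37 and 1.14 in BLU667 and 3.89 and 4.38 in DMSO. No group overlapped its neighbour in the order BR10, DMSO, BR8, BR16, BLU667. The differences of BR10 (0.14 ± 0.10, limma adjusted p = 0.28) and BR8 (-0.18 ± 0.10, limma adjusted p = 0.161) from DMSO did not pass the test. HHEX fell to 0.304 times its DMSO mean FPKM after 24 h of inhibitor (-1.19 ± 0.10, limma adjusted p = 1.74e-05). In the colonies it stood 2.83-fold above the BLU667 group in mean FPKM (0.99 ± 0.08 on the log2 scale, limma adjusted p = 1.6e-05). BR16 alone of the colonies was called lower than DMSO (-0.56 ± 0.10, limma adjusted p = 0.00189). For the colonies together the difference from DMSO was -0.20 ± 0.08 (limma adjusted p = 0.0658), and it passed the test once GC trends were removed (-0.28, limma adjusted p = 0.0139).

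GLIS3 (ENSG00000107249, chromosome 9, 3824127 to 4348392, minus strand) had 16.0 and 16.4 FPKM in BR8, 15.0 and 14.4 in BR10, 14.3 and 14.7 in BR16, 34.6 and 34.9 in BLU667 and 6.39 and 6.65 in DMSO. The groups fall on 3 levels, with BLU667 on top, the 3 colonies together in the middle and DMSO at the bottom. Mean FPKM was 5.33-fold higher in BLU667 than in DMSO (2.25 ± 0.07 on the log2 scale, limma adjusted p = 1.05e-07), a change larger in size than that of 96.9% of tested genes. The colonies were 2.32-fold above DMSO (1.10 ± 0.05, limma adjusted p = 2e-06) and at 0.435 times the BLU667 level (-1.15 ± 0.05, limma adjusted p = 1.05e-06). Differences among the colonies did not pass the test (0.15 between the highest and the lowest, limma F test adjusted p = 0.151). The 4 genes that overlap GLIS3 reached at most 0.70 FPKM in any library, AL137071.1 being the highest.

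THRB (ENSG00000151090, chromosome 3, 24117153 to 24495756, minus strand) had 15.2 and 17.2 FPKM in BR8, 8.04 and 8.59 in BR10, 9.84 and 10.2 in BR16, 9.60 and 10.3 in BLU667 and 2.96 and 3.68 in DMSO. DMSO was lowest and BR8 highest, and the other 3 groups lay between 8.04 and 10.3 FPKM. After 24 h of BLU667 THRB stood 2.996-fold above DMSO in mean FPKM (1.35 ± 0.10, limma adjusted p = 1.2e-05), and the colonies together stood 3.46-fold above DMSO (1.49 ± 0.08, limma adjusted p = 3.77e-06). BR16 and BLU667 differed by 0.01 ± 0.10 on the log2 scale (limma adjusted p = 0.958), and the colonies together differed from BLU667 by 0.14 ± 0.08 (limma adjusted p = 0.174). BR8 was called above BR10 (0.88 ± 0.10), BR16 (0.64 ± 0.10) and BLU667 (0.65 ± 0.10), with limma adjusted p between 0.000626 and 0.00185. Genes that overlap THRB reached at most 0.31 FPKM in any library, RPL31P20 being the highest.

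**Figure D2:**
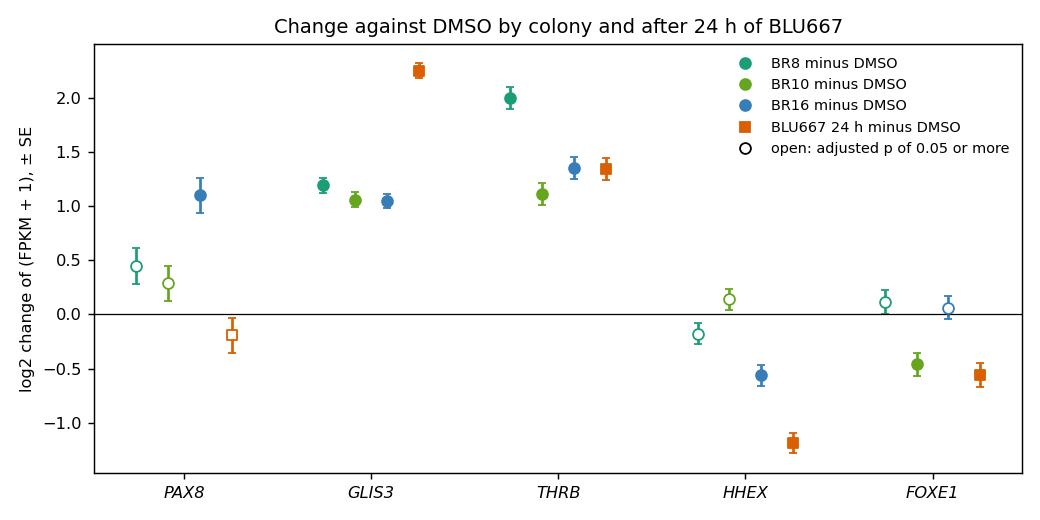
Log2 change of FPKM + 1 against DMSO (± SE of the limma fit) for each colony and for 24 h of BLU667, in the 5 identity genes tested. Filled symbols passed an adjusted p of 0.05 and open symbols did not. The 4 comparisons share the 2 DMSO libraries. GLIS3 and THRB lie above 0 in all 4, while HHEX and FOXE1 are lowest after 24 h of BLU667.

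The genes below the filter were read as counts, recovered from FPKM and gene length. TG (ENSG00000042832, chromosome 8, 132866958 to 133134903, plus strand) had 45 and 34 reads in BR8, 29 and 38 in BR10, 26 and 41 in BR16, 21 and 30 in BLU667 and 9 and 1 in DMSO. Every colony and BLU667 library held more TG reads than either DMSO library, yet none reached 0.24 FPKM. In RPM (reads scaled to 1000000 reads in genes), pooled over a group, TG stood at 2.34 in BR8 (95% Poisson interval 1.85 to 2.91), 1.80 in BR10 (1.40 to 2.29), 1.95 in BR16 (1.51 to 2.48), 1.49 in BLU667 (1.11 to 1.96) and 0.296 in DMSO (0.142 to 0.545). The ratio to DMSO was 6.83 for the colonies (interval 3.64 to 14.5) and 5.04 for BLU667 (2.53 to 11.1). Its size turned on the 2 DMSO libraries. Without DMSO replicate 2 it was 4.06 for the colonies (2.10 to 9.002) and 2.99 for BLU667 (1.46 to 6.91). Without DMSO replicate 1 a single DMSO read remained, and the ratio was 31.8 for the colonies (5.64 to 1261) and 23.4 for BLU667 (4.02 to 943). In a voom fit of the recovered reads of genes with at least 10 reads, chosen after seeing the data like the left-out libraries here, both were called (limma adjusted p = 0.00089 for the colonies and 0.00474 for BLU667). Without DMSO replicate 2 that fit called the colonies (limma adjusted p = 0.0197) and not BLU667 (limma adjusted p = 0.0801). In the unfiltered fit of log2(FPKM + 1) the colonies were called (limma adjusted p = 0.0116, and 0.0553 without DMSO replicate 2) and BLU667 was not (limma adjusted p = 0.0749, and 0.0488 without BR16 replicate 2). The SLA gene, which lies inside TG on the other strand, stayed at or below 0.0519 FPKM.

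DIO2 (ENSG00000211448, chromosome 14, 80197527 to 80387757, minus strand) had 17 and 17 reads in BR8, 4 and 10 in BR10, 4 and 8 in BR16, 2 and 5 in BLU667 and 2 and 2 in DMSO. Both BR8 libraries held more reads than any library of the other groups, which spanned 2 to 10 reads. In RPM this was 1.01 in BR8 (interval 0.696 to 1.41) and 0.118 in DMSO (0.0323 to 0.303), a ratio of 8.49 (3.03 to 32.9). BR8 was called above DMSO in the voom fit of genes with at least 10 reads (limma adjusted p = 0.00442) and in the unfiltered fit (limma adjusted p = 0.00734), and in both with any 1 library left out. Against the other colonies BR8 was less clear. The voom fit did not call it above BR10 (limma adjusted p = 0.0955) or BR16 (limma adjusted p = 0.0546). The unfiltered fit called it above BR16 (limma adjusted p = 0.0327) and not above BR10 (limma adjusted p = 0.0533). The limma F test over the colonies gave adjusted p = 0.0664 with voom and 0.036 unfiltered. The colonies together were called above DMSO in both fits (limma adjusted p = 0.0458 with voom and 0.0467 unfiltered), with BR8 holding 34 of their 60 reads. That call was lost without either DMSO library, with limma adjusted p = 0.214 and 0.151 in the voom fit and 0.0969 and 0.0815 unfiltered (without DMSO replicate 1 and replicate 2). In the voom fit it was also lost without either BR8 library, without BR10 replicate 2 or without BR16 replicate 2 (limma adjusted p of 0.0556 to 0.0933). The ratio of BLU667 to DMSO was 1.73 (0.439 to 8.05), and the difference was not called in either of these fits.

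TSHR (ENSG00000165409, chromosome 14, 80954989 to 81146302, plus strand) had 2 reads in BR8 replicate 1, 1 in BR16 replicate 1 and 0 in the other 8 libraries. NKX2-1 (ENSG00000136352, chromosome 14, 36516392 to 36521149, minus strand) had 1 read in BR16 replicate 1 and 0 in the other 9. In the DMSO group, with 0 reads of 33766926 for either gene, the limit set at 3 reads over the group was 0.0888 RPM. These limits and intervals cover counting error only. Differences between groups were not detectable for these 2 genes at this depth. CEP128, which overlaps TSHR on the other strand, ranged from 0.0665 to 1.15 FPKM. Of the 3 genes that overlap NKX2-1, NKX2-1-AS1 and AL132857.1 were listed at 0 in every library. AL132857.2, on the other strand, reached 0.137 FPKM.

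**Figure D3:**
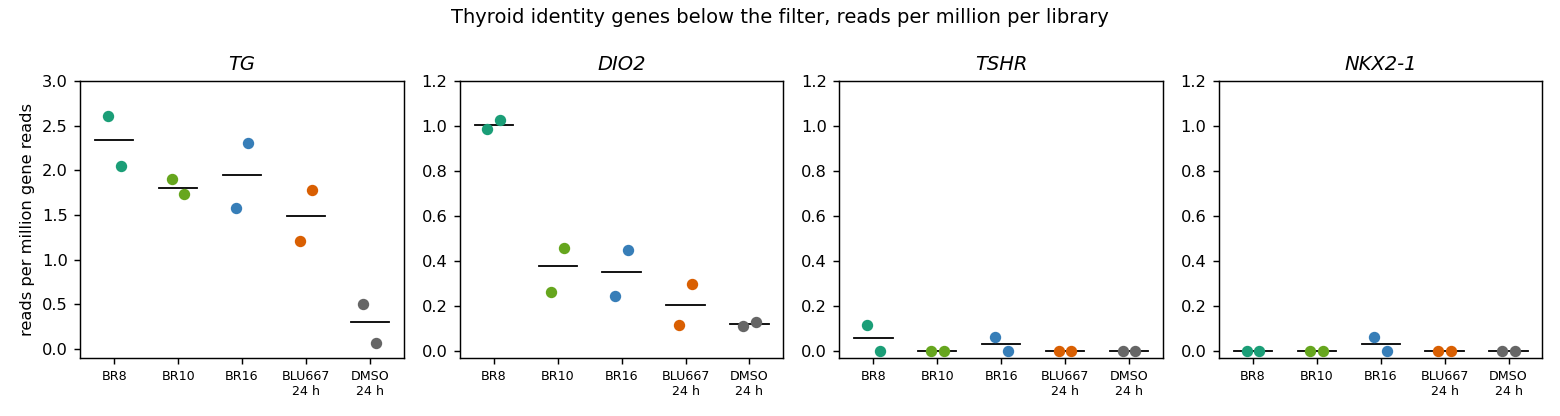
RPM of the 4 identity genes below the filter, with an axis to 3.0 for TG and to 1.2 for the others. Each point is a library and the bar is the rate over both libraries of a group. TG is lowest in DMSO, DIO2 is highest in BR8, and TSHR and NKX2-1 lie at or near 0.

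Counted over the 5 genes tested, 2 rose (GLIS3, THRB) and 2 fell (HHEX, FOXE1) after 24 h of BLU667, where 60.2% of all tested genes were called, 29.0% higher and 31.2% lower. In the colonies against DMSO 3 rose (PAX8, GLIS3, THRB) and 0 fell, beside 49.2% of all genes called, 22.9% higher and 26.3% lower. Against BLU667 the colonies were higher in PAX8, HHEX and FOXE1 and lower in GLIS3, beside 61.1% of all genes, 32.4% higher and 28.7% lower. With 5 genes, these counts do not set the identity genes apart from the table as a whole. The median log2 change of the 5 genes was -0.19 for BLU667 against DMSO, 0.61 for the colonies against DMSO and 0.47 for the colonies against BLU667, and over all tested genes it was -0.01, -0.03 and 0.03. Comparisons that share a group share its libraries and are not independent.

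The colonies differed among themselves in 4 of the 5 genes (limma F test, 58.1% of all genes called). PAX8 was highest in BR16, THRB in BR8 and HHEX in BR10, and FOXE1 was lowest in BR10. The spans between the highest and the lowest colony were 0.81 for PAX8 (limma adjusted p = 0.00753), 0.88 for THRB (0.000735), 0.70 for HHEX (0.00174) and 0.58 for FOXE1 (0.00453) on the log2 scale. The PAX8 span was 0.52 with GC trends removed and was not called without BR16 replicate 2 (limma adjusted p = 0.0518). Colony by colony, BR8 differed from DMSO in 2 genes (51.3% of all genes called), BR10 in 3 (40.8%) and BR16 in 4 (45.5%). Against BLU667, BR8 differed in 5 genes (57.4%), BR10 in 3 (53.6%) and BR16 in 4 (58.7%). BR8 and BR10 differed in THRB, HHEX and FOXE1 (22.8% of all genes called), BR8 and BR16 in PAX8, THRB and HHEX (48.6%), and BR10 and BR16 in PAX8, HHEX and FOXE1 (43.1%). Over the 10 pairs of groups, 34 of 50 gene and pair combinations were called, beside 48.2% over all genes, and HHEX was called in the most pairs (8 of 10).

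Over the 10 libraries, which fall into 5 groups, Pearson's r of log2(FPKM + 1) between the identity genes was highest for GLIS3 with THRB (0.67) and lowest for GLIS3 with HHEX (-0.78). GLIS3 gave -0.59 with FOXE1. PAX8 gave 0.55 with FOXE1 and 0.12 with HHEX. Of 4546 protein-coding genes whose group means spanned at least 1 on the log2 scale, those most like GLIS3 were NABP1 (r = 0.997), CTTNBP2NL (0.99) and the surface glycoprotein gene CD24 (0.99). The closest to PAX8 were TBC1D2 (0.99), IGFBP6 (0.98) and RNASET2 (0.98), and to HHEX the mismatch repair gene MSH6 (0.99), the kinase gene SRPK1 (0.98) and MORC4 (0.98). THRB was followed most closely by the cytokine gene IL15 (0.99), TPMT (0.99) and the integrin gene ITGAV (0.98), and FOXE1 by SRPRB (0.96), DUS1L (0.95) and GPS1 (0.94).

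A wider list of 16 thyroid differentiation score genes, 8 of them identity genes themselves, was read beside the set. Of these 16 genes 5 passed the filter, and THRA, the other thyroid hormone receptor, was the only addition. Of these 5, 2 rose and 1 fell in BLU667 against DMSO, and 3 rose and 1 fell in the colonies against DMSO. Over all tested genes 60.2% were called in BLU667 against DMSO, 29.0% higher and 31.2% lower. In the colonies against DMSO it was 49.2%, 22.9% higher and 26.3% lower. Whether this list or those below depart from these shares was not tested. THRA averaged 0.579 ± 0.107 FPKM in BR8, 1.11 ± 0.186 in BR10, 1.13 ± 0.253 in BR16, 1.67 ± 0.159 in BLU667 and 1.79 ± 0.160 in DMSO (SD, n = 2 each). THRA fell in the colonies (-0.54 ± 0.11 against DMSO, limma adjusted p = 0.00394), the direction opposite to THRB. The iodide transporter SLC5A5 reached at most 0.0311 FPKM in any library, and SLC5A8 was listed at 0 in all of them. DUOX1, an oxidase that supplies hydrogen peroxide for hormone synthesis, stayed at or below 0.576 FPKM. Its means were 0.232 in BR8, 0.233 in BR10, 0.425 in BR16, 0.515 in BLU667 and 0.0815 in DMSO. Being below the filter, DUOX1 did not enter the main tests.

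**Figure D4:**
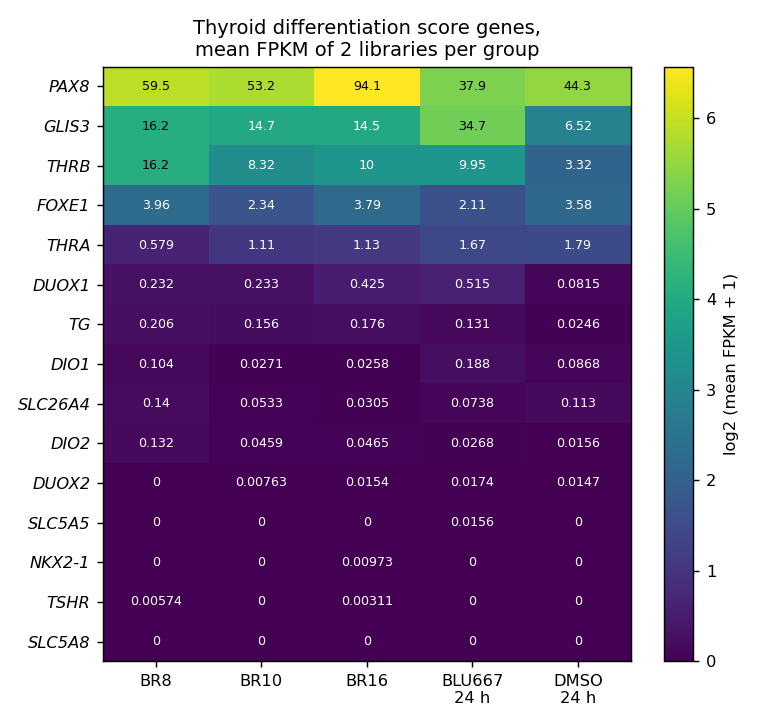
Mean FPKM of 2 libraries per group (numbers) for 15 of the 16 thyroid differentiation score genes, coloured by log2 of the mean plus 1 and ordered by their highest group mean. The first 4 rows are identity genes (PAX8, GLIS3, THRB, FOXE1), and in every row below THRA all means are under 1 FPKM.

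Of 16 genes of hormone synthesis and iodide handling, 3 were tested, all of them cathepsins that digest thyroglobulin but also serve other cells. In BLU667 2 rose and 0 fell, and in the colonies against DMSO 1 rose and 0 fell. For this list and the next ones, the shares of all tested genes called were 60.2% in BLU667 and 49.2% in the colonies. CTSB (0.77 ± 0.10) and CTSK (0.57 ± 0.14) rose after 24 h of BLU667, and CTSL rose in the colonies against DMSO (0.41 ± 0.14, limma adjusted p = 0.0427). Among 12 genes of hormone transport and deiodination 4 were tested, of which 2 rose and 0 fell in BLU667 and 1 rose and 0 fell in the colonies against DMSO. Of 13 receptor partners and targets 10 were tested. After 24 h of BLU667, 4 were higher, among them KLF9, a gene induced by thyroid hormone (0.92 ± 0.14), and the coactivator NCOA3 (0.68 ± 0.11). The 1 lower gene was MED1 (-0.65 ± 0.08). In the colonies 0 were higher and 3 lower than DMSO.

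For signalling below the thyrotropin receptor, 12 of 17 cyclic AMP pathway genes were tested. Of them 3 were higher and 3 lower both in BLU667 and in the colonies against DMSO, beside 60.2% and 49.2% of all tested genes called. The adenylyl cyclase ADCY9 rose after 24 h (1.49 ± 0.10) and in the colonies (0.70 ± 0.08), while ADCY3 fell (-1.51 ± 0.12 and -0.33 ± 0.10). PRKACA, a catalytic subunit of protein kinase A, fell after 24 h (-1.27 ± 0.12) and in the colonies against DMSO (-0.59 ± 0.10). Among 8 relatives of the identity factors 6 were tested, of which 3 rose and 2 fell in BLU667 and 0 rose and 2 fell in the colonies against DMSO. PAX2 (1.41 ± 0.14) and GLIS1 (1.37 ± 0.21) rose in BLU667, and PAX5 fell (-1.04 ± 0.13). PAX5 was also lower in the colonies than in DMSO (-1.59 ± 0.10).

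Markers of other tissues and cell types were also read, among them lung, which shares NKX2-1, and kidney, which shares PAX8. Their counts stand beside 60.2% of all tested genes called in BLU667 against DMSO and 49.2% in the colonies against DMSO. None of 9 C cell genes and none of 3 parathyroid genes passed the filter, and PTH, GCM2 and CASR were listed at 0 in every library. Of 8 lung genes that go with NKX2-1, SCGB1A1 alone passed, at 0.204 to 1.39 FPKM. It was lower in the colonies than in DMSO (-0.85 ± 0.14), and its difference in BLU667 did not pass the test. Of 10 kidney genes that go with PAX8, 4 were tested, 3 rose and 0 fell in BLU667, and the summed FPKM of the list was 49.1 to 52.9 in BLU667 libraries and 5.90 to 7.99 in DMSO libraries. CDH16, a cadherin of kidney and also of thyroid follicular cells, made up most of the BLU667 sum, with 32.5 ± 2.63 FPKM. In DMSO it averaged 2.11 ± 0.787 FPKM, below PAX2 at 3.19 ± 0.327 (SD, n = 2 each). The log2 change of CDH16 in BLU667 against DMSO was 3.45 ± 0.17. SLC12A3, a kidney sodium-chloride carrier, averaged 7.003 ± 1.99 FPKM in BLU667 and 0.0597 ± 0.0266 in DMSO (SD, n = 2 each), while UMOD, AQP2 and EMX2 were listed at 0 throughout. In the colonies that kidney list summed to 8.08 to 16.4 FPKM, and 2 of its genes rose and 1 fell against DMSO. Of 8 epithelial genes 4 were tested, and 0 rose and 3 fell after 24 h, KRT18 by 1.56 ± 0.14, while in the colonies 2 rose and 0 fell against DMSO. Levels within this list were unlike. CLDN1 ranged from 22.1 to 139 FPKM over the libraries, KRT8 from 17.2 to 69.0, KRT18 from 9.36 to 40.5 and KRT7 from 0.169 to 1.41. EPCAM and CDH1, which define many epithelia, stayed at or below 0.196 and 0.1004 FPKM, and KRT19 and CLDN4 at or below 0.316 and 0.183. Among 12 fibroblast, immune and endothelial genes 2 were tested, of which 1 rose in BLU667 and 2 rose in the colonies against DMSO. In both genes the colonies were unlike. COL1A1 averaged 0.881 FPKM in BR8, 0.456 in BR10, 2.14 in BR16, 1.39 in BLU667 and 0.454 in DMSO. The fibroblast gene LUM averaged 5.52 ± 1.29 FPKM in BR8 (SD, n = 2), and no other group's mean passed 0.305 FPKM, and DCN, COL1A2 and CD3E were listed at 0 throughout. How these lists bear on the identity genes was not tested.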

How the data were processed

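The data are 10 RNA-seq libraries of TPC-1 cells in 5 groups of 2. Per the labels' protocols, total RNA was taken by a TRI reagent and Direct-zol procedure, passed through GlobinClear and made into non-directional NEB libraries. Per the submitters' processing notes, CASAVA, STAR 2.5, HTSeq 0.6.1 and DESeq2 were used with GRCh38. No source used here names the annotation release or what each tool did. The authors deposited FPKM per gene beside a gene length in bases.

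FPKM times gene length fell on whole reads for 100% of values (within 0.05 of a read). Genes reaching 1 FPKM in 2 or more libraries entered limma 3.58.1 (R 4.3.3), which fitted 5 group means to log2(FPKM + 1), let the variance follow the mean level and left 5 residual degrees of freedom. Adding 1 understates changes of low genes. P-values are two-sided, Benjamini-Hochberg adjusted over all tested genes, and called below 0.05. The colonies together are the mean of 3 group means, so their SE reflects libraries and not colonies. The limma procedure was tested on simulated data, which held no GC trend between libraries.

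The identity genes, the 12 other gene lists and the tests were chosen with earlier results of these data known. Named beyond the identity genes are up to 3 called genes of each list, the 3 closest patterns per tested identity gene, overlapping genes, and markers, of which those at or near 0 were chosen after their values were seen. Some genes of these lists are not reported here. Alternatives were other pseudocounts, filters, scalings, a GC correction (loess, span 0.3), voom on recovered reads, a replicate block, colony means as 3 replicates and leaving out each library. GC content came from the longest GENCODE 29 transcript. RefSeq promoter windows of build GRCh38.p14 and figures were read and drawn with Python 3.11.15.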

Additional observations from a re-analysis of the deposited data

Results flagged for a closer look

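The 3 colonies, grown from the same parental cells, differed in 4 identity genes by a test of the difference itself (limma F test over the colonies). The log2 span between the highest and the lowest colony was 0.81 for PAX8, 0.88 for THRB, 0.70 for HHEX and 0.58 for FOXE1. BR16 held the highest PAX8, BR8 the highest THRB and BR10 the highest HHEX and the lowest FOXE1, and 58.1% of all tested genes also differed among colonies.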

How the results depend on the processing

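Of 462 recomputed values of the 5 tested genes, 452 kept their direction and their side of the threshold. GLIS3, THRB and HHEX kept theirs under every setting that tested them, for BLU667 against DMSO and for the colonies against BLU667. The 3 reversals were all of values that had not passed the test: PAX8 in BLU667 against DMSO was 0.10 without DMSO replicate 1, and FOXE1 in the colonies against DMSO was 0.057 with GC trends removed, with and without the replicate block. PAX8 in BLU667 against DMSO ran from -0.48 to 0.10 over the fits that left out 1 library. The cause was not tested.

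With the filter at FPKM of at least 5, HHEX and FOXE1 were not tested. The genes called were then 2 for BLU667 against DMSO, 2 for the colonies against BLU667 and 2 among colonies, and 21 gene and pair combinations were called (34 over 5 genes before). With no filter, or with voom on genes of at least 10 reads, 5 genes were called for the colonies against DMSO (3 before), since TG and DIO2 entered. Colony means as 3 replicates left 2 genes called against BLU667 (4 before), and 1540 genes over the whole table against DMSO (6848 before) and 3656 against BLU667 (8507 before). Leaving out 1 library at a time gave 3 to 4 genes called among colonies, 4 to 5 for BLU667 against DMSO, 3 for the colonies against DMSO, 4 against BLU667 and 29 to 39 combinations. Without BR16 replicate 2, 5236 genes differed among colonies (8092 before).

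The replicate numbers gave correlations of deviations between -0.16 and 0.11 across groups. Whether libraries of the same number were handled together cannot be told from these values, and no pairing was used in the main fit. With the replicate block 33 combinations were called, and the numbers of genes called stayed at 4, 3, 4 and 4. At this depth TSHR and NKX2-1 could not be compared, and DIO2 rested on 71 reads in all.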
